A study of Homo sapiens with 8 samples.

Results

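The genes described here are 10 receptor tyrosine kinases other than ERBB2: EGFR, ERBB3, MET, FGFR2, FGFR3, FGFR4, IGF1R, INSR, EPHA2 and EPHB4. They were taken by name from an RNA-seq table of 30755 gene symbols, all 10 were in it, and all 10 passed the filter on low values that is given below. None of them lies on chromosome 17, where ERBB2 lies, and copy number was not measured in the libraries used here. The table holds 4 libraries of ESO26 cells, a line grown from an adenocarcinoma of the oesophagus. In 2 of them HNF4A had been knocked down with a small interfering RNA (siHNF4A), and 2 were controls, whose treatment the labels do not state. HNF4A is a nuclear receptor that acts as a transcription factor of the liver and gut epithelium. No drug, age or further genotype is given, and all 4 libraries come from 1 cell line. Nothing says that the replicates came from separate cultures, so p-values measure only the spread between these libraries, which may be technical. The other samples of the series, from chromatin assays, were not analysed here.

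Receptor tyrosine kinases span the cell membrane and carry a ligand-binding part outside the cell and a kinase inside it. For most of them, ligand binding brings receptors together, so that they phosphorylate each other on tyrosines and attract adaptor proteins. These pass the signal to the RAS-MAPK, PI3K-AKT, phospholipase C and STAT routes, which control growth, survival and movement of epithelial cells. Several of these receptors are amplified, mutated or strongly expressed in gastrointestinal carcinomas, and some are drug targets.

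Values are the authors' normalized counts, which summed to between 17912507 and 18613685 per library. Genes at 0 numbered 5479 and 5640 in the controls, against 4260 and 4362 in the knockdown, so the detection of low genes differed between the groups. The part of this difference in the rises of low genes below was not tested. Levels are compared between libraries for 1 gene at a time, and not between genes, since transcript lengths were not used. Fits that left out 1 library had 1 library in a group, so no spread within that group entered them. Their p-values can be smaller than those of all 4 libraries, and a call kept in them is no stricter test. HNF4A was at 4129 and 3937 normalized counts in the controls and at 1140 and 932 in the knockdown, or 25.7% of the control mean. Its log2 fold change was -1.97 (SE 0.095, adjusted p = 1.59e-05 in limma). All 10 columnar epithelial markers passed the filter, among them EPCAM, CDH1, KRT8 and VIL1, and their summed level was 104952 to 108852 in control libraries against 99029 to 101744 after the knockdown. Their median log2 fold change was 0.053, with 1 called higher, 3 called lower and 6 not called, where 6.02% of all genes tested were called as higher and 8.11% as lower. Of these markers EPCAM, KRT8 and KRT18 fell, and KRT19 rose but was called in 1 of the 4 fits that left out a library, the one without control replicate 2. The 6 squamous markers with values summed to 54.7 and 33.6 normalized counts for the controls, against 44.9 and 71.0 for the knockdown. For the 8 stromal, endothelial and immune markers with values the sums were 308 and 209.5, against 347.7 and 320.5, so both knockdown libraries were above both controls. KRT14 rose from 0.637 and 2.29 to 12.2 and 25.7, and VWF from 8.55 and 6.68 to 47.5 and 36.4. KRT14 was not called without siHNF4A replicate 1 or siHNF4A replicate 2 (adjusted p of up to 0.210 in limma), nor VWF without siHNF4A replicate 1 (adjusted p = 0.0701). The other tested members of these lists were not called. Without overlap, COL1A1 (179 and 108 in the controls, 202 and 211.5 in the knockdown), CD14 and SOX2 were higher, with log2 fold changes of 0.57, 0.70 and 0.58, and KRT5 (32.6 and 12.1, against 6.14 and 10.5) and LYZ were lower, with -1.21 and -0.86. CDH5 and PDGFRB overlapped. When 1 library was left out, the log2 fold change lay between 0.21 and 0.93 for COL1A1 and between 0.32 and 1.09 for CD14. For SOX2 it lay between 0.32 and 0.85. In the same fits KRT5 lay between -1.89 and -0.53 and LYZ between -1.20 and -0.52. No marker with values was at 0 in all 4 libraries. The part of these markers in the results below was not tested. In bulk RNA, fewer cells of a type and less RNA per cell cannot be told apart.

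Of the 10 receptors 5 changed after the knockdown and 5 did not pass the test. ERBB3, FGFR4, INSR and EPHA2 fell, to between 57.3% and 73.3% of their control means, and EPHB4 rose to 122%. The threshold was an adjusted p of 0.05 in limma, and the 15577 genes whose mean reached 10 normalized counts were fitted together. Of all these genes 14.1% were called, 6.02% as higher (938 genes) and 8.11% as lower (1264 genes). After upper-quartile rescaling that split was 1139 higher and 1006 lower, and the same 5 receptors were called. The median log2 fold change of the 10 receptors was -0.043, against -0.007 over all genes tested, with values from -0.79 for INSR to 0.40 for IGF1R. The knockdown and control libraries did not overlap for 8 of the 10 receptors, 3 being higher and 5 lower after it. Of all tested genes 57.0% did not overlap, 26.9% higher and 30.1% lower. IGF1R and FGFR2 were the 2 receptors whose libraries overlapped. The summed level of the 10 receptors was 19218 and 19302 normalized counts for the controls, against 18211 and 18118 for the knockdown.

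**Figure D1:**
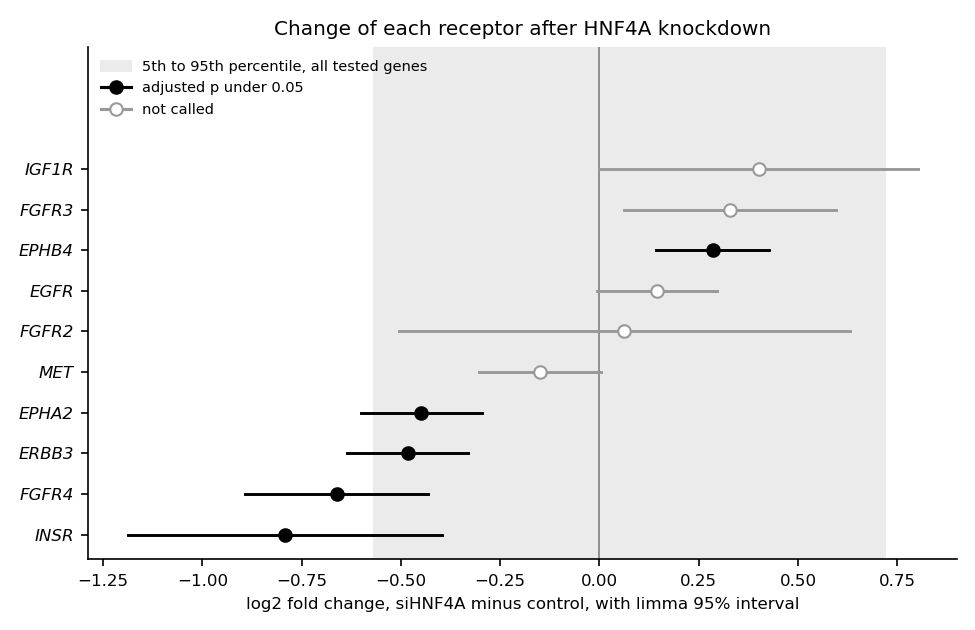
Log2 fold change of each receptor (x axis, siHNF4A minus control) with its 95% interval from limma, 1 row per receptor. Filled black points are called and open grey points are not. The grey band runs from -0.57 to 0.72, the 5th to the 95th percentile of all tested genes, and the points of INSR and FGFR4 lie to its left.

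**Figure D2:**
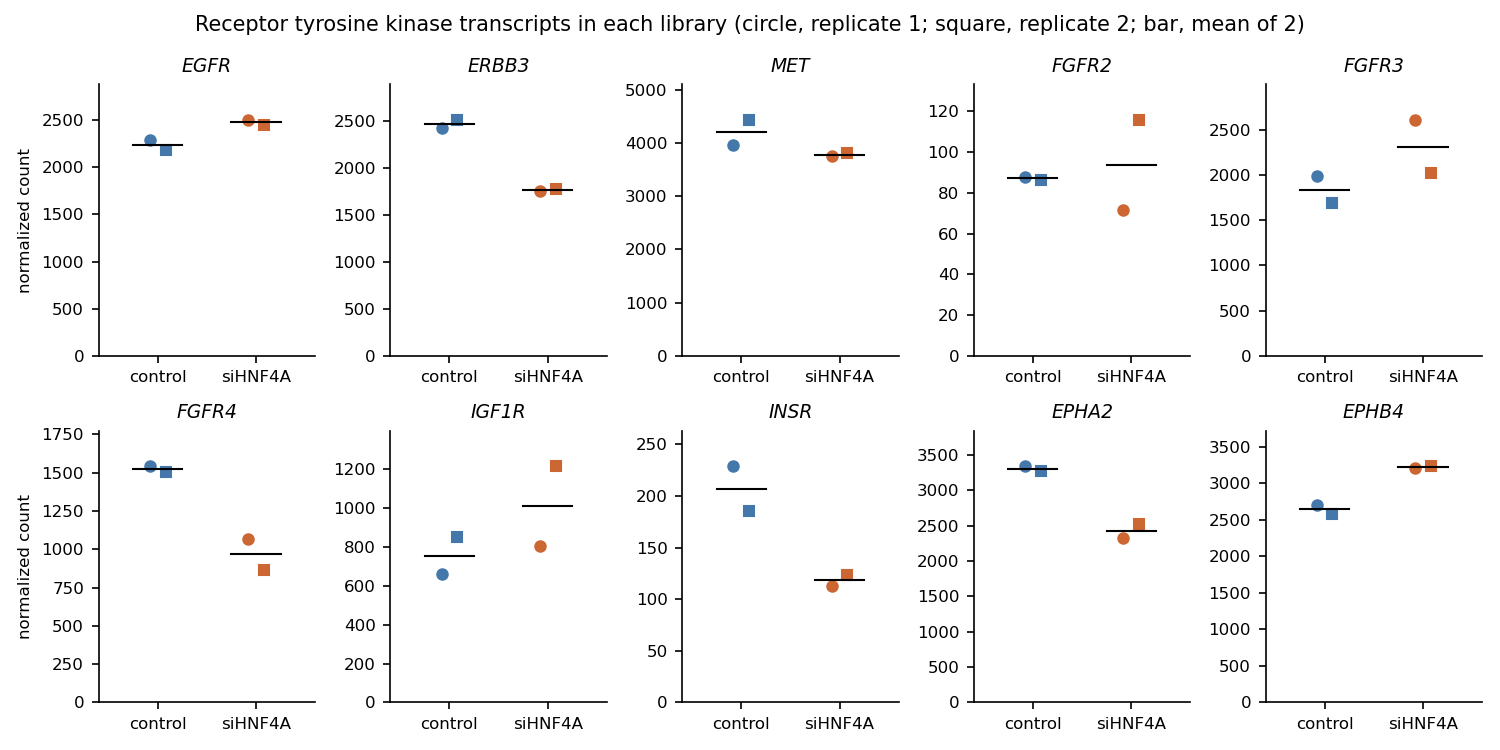
Normalized count (y axis, from 0) of each receptor in the 2 control and the 2 siHNF4A libraries, with a bar at the mean of 2. Each panel has its own scale. The siHNF4A points lie below both control points for ERBB3, FGFR4, INSR, EPHA2 and MET, and above them for EPHB4, EGFR and FGFR3.

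The promoters of the called receptors that had a window are shown, 3 that fell and 1 that rose. RefSeq windows on GRCh38.p14 were matched by symbol for 9 of the 10 receptors, all but ERBB3, as 15 windows. Each sequence is the 250 bases before the first listed start, 5′ to 3′ on the gene's strand, with copies of GGGCGG on either strand in capitals. GGGCGG is the GC box that SP1-type factors bind, and neighbouring copies may share a base.
EPHA2: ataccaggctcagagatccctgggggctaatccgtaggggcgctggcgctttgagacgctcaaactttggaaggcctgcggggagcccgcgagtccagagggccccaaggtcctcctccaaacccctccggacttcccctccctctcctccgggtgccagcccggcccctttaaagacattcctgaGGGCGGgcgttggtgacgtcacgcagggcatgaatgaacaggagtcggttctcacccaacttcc
FGFR4: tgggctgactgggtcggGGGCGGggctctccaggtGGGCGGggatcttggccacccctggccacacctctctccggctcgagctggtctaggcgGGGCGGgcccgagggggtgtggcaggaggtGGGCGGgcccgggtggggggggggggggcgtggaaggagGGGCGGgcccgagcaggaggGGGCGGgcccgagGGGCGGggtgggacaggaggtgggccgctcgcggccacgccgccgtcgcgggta
INSR: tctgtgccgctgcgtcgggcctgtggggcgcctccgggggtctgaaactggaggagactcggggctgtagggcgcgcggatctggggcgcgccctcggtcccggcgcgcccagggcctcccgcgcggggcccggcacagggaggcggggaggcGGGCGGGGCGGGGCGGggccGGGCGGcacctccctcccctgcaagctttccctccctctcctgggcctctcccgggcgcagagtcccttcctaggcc
EPHB4: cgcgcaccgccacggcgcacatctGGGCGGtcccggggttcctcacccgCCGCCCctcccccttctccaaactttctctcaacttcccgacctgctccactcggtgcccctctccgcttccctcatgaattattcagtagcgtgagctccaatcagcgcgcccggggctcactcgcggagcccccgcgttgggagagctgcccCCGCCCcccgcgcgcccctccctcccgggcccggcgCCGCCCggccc
The windows are chr1:16156070-16156319 on the minus strand for EPHA2, chr5:177086665-177086914 on the plus strand for FGFR4, chr19:7294415-7294664 on the minus strand for INSR and chr7:100827524-100827773 on the minus strand for EPHB4. They held 1 copy for EPHA2, 7 for FGFR4, 4 for INSR and 4 for EPHB4. The second listed FGFR4 start, which is not shown, held 0 copies at a GC content of 57.2%. The part of the motif in the changes was not tested. GGGCGG was in 10 of the 15 windows, at least 1 for each of the 9 receptors, and in 42.6% of all 35116 RefSeq windows of this length. The GC content of the 4 sequences was 63.2% for EPHA2, 79.6% for FGFR4, 78.4% for INSR and 72.8% for EPHB4. Over all windows its median was 58.0% (quartiles 46.4% and 68.0%). TATAAA, searched on both strands, was in 1 of the 15 windows, at the second EGFR start, and in 10.7% of all windows. The HNF4-type letters CAAAGTCCA and CAAAGGTCA, searched on both strands, were in 0 of the 15 windows and in 0.325% and 0.339% of all windows. At such low shares 0 of 15 is likely for any windows. Other forms of the site, and sites outside the windows, were not searched, so this 0 cannot show that HNF4A sites are absent. None of these motifs contains another.

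In the ERBB family, ERBB3 fell and EGFR and ERBB2 were not called. ERBB3 binds neuregulins, has a kinase of very low activity and signals mainly as the partner of ERBB2 or EGFR, through PI3K. It was at 2428 and 2517 normalized counts in the controls and at 1761 and 1778 in the knockdown. Both knockdown libraries were below both controls, and replicates of a group lay within 1.04 times of each other. The log2 fold change was -0.48 (SE 0.068, 95% interval -0.63 to -0.33, adjusted p = 0.0019 in limma). When 1 library was left out, this value lay between -0.51 and -0.46.

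EGFR, the receptor of EGF, TGF-alpha and amphiregulin, was at 2291 and 2186 in the controls and at 2501 and 2448 in the knockdown. Both knockdown libraries were above both controls by a small margin, and the test was not passed. Its log2 fold change was 0.14, with a 95% interval from -0.006 to 0.30 and an adjusted p of 0.189 in limma. ERBB2, the partner of ERBB3 that binds no ligand itself, was at 63592 and 62011 in the controls and at 64612 and 60241 in the knockdown. These libraries overlapped, and the 95% interval of its log2 fold change ran from -0.12 to 0.096 (adjusted p = 0.923 in limma). ERBB4, the remaining ERBB gene, had a mean under 10 and was listed at 0 in control 1 and at 29.96 in siHNF4A 1, with 1.07 and 1.20 in the other libraries.

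Among the receptors of fibroblast growth factors, FGFR4 fell and FGFR2 and FGFR3 were not called. FGFR4 is the receptor through which FGF19 represses bile acid synthesis in the liver, with KLB as co-receptor. KLB had a mean under 10 and did not exceed 9.11 normalized counts. FGFR4 was at 1541 and 1507 normalized counts in the controls and at 1069 and 868 in the knockdown. The knockdown libraries were both below the controls and lay 1.23 times apart, against 1.02 times for the controls. The log2 fold change was -0.66 (SE 0.10, 95% interval -0.89 to -0.43, adjusted p = 0.0032 in limma). It lay between -0.81 without siHNF4A replicate 1 and -0.51 without siHNF4A replicate 2.

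FGFR3, an FGF receptor that is mutated in bladder cancers, was at 1984 and 1686 in the controls and at 2608 and 2020 in the knockdown. Both knockdown libraries were above both controls, with siHNF4A 2 only just above control 1. Its log2 fold change was 0.33 (SE 0.12, 95% interval 0.061 to 0.59) and its adjusted p was 0.101 in limma. The call depended on single libraries: FGFR3 was past the threshold without control replicate 1 (log2 fold change 0.45, adjusted p = 0.0079 in limma) and without siHNF4A replicate 2 (0.51, adjusted p = 0.026 in limma). Without siHNF4A replicate 1 its log2 fold change was 0.14 (adjusted p = 0.514 in limma), and without control replicate 2 it was 0.21 (adjusted p = 0.256). FGFR2, whose epithelial form binds FGF7 and FGF10, was at 87.6 and 86.4 in the controls and at 71.5 and 116 in the knockdown. The knockdown libraries lay on either side of the controls, and the 95% interval of the log2 fold change, -0.50 to 0.63, leaves its direction undetermined (adjusted p = 0.90 in limma). FGFR1 had a mean under 10 and did not exceed 1.17 normalized counts in any library. FGFRL1, a relative without a kinase, was at 1122 and 1005 in the controls and at 949 and 867 in the knockdown and was not called (adjusted p = 0.146 in limma).

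In the insulin receptor family, INSR fell and IGF1R was not called. INSR, which binds insulin and IGF2 and can pair with IGF1R in hybrid receptors, was at 229 and 185 normalized counts in the controls and at 113 and 124 in the knockdown. Both knockdown libraries were below both controls. The log2 fold change was -0.79 (SE 0.18, 95% interval -1.19 to -0.40, adjusted p = 0.016 in limma). The call was lost without control replicate 1 (log2 fold change -0.64, adjusted p = 0.058 in limma), without siHNF4A replicate 1 (-0.73, adjusted p = 0.082) and without siHNF4A replicate 2 (-0.86, adjusted p = 0.053). It was also lost without the filter on low values (adjusted p = 0.074 in limma).

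IGF1R, the receptor of IGF1 and IGF2, was at 658 and 852 in the controls and at 806 and 1214 in the knockdown. siHNF4A 1 lay between the controls, and siHNF4A 2 was the highest library. The log2 fold change was 0.40 (SE 0.18, 95% interval 0.001 to 0.80, adjusted p = 0.172 in limma). Its size rested on single libraries: it was 0.11 without siHNF4A replicate 2 and 0.70 without siHNF4A replicate 1, the latter past the threshold (adjusted p = 0.024 in limma). Without control replicate 2 it was also past the threshold (0.59, adjusted p = 0.016 in limma), and without control replicate 1 it was 0.215. IGF1R overlaps IRAIN and other noncoding genes in RefSeq, and the sources used here do not say if reads were counted by strand. IRS1 and IRS2, the docking proteins that both receptors phosphorylate, were chosen after their values were seen. IRS1 was at 41.9 and 25.7 in the controls and at 41.3 and 90.5 in the knockdown, with overlap, and IRS2 was at 105 and 105 and at 93.2 and 96.1. Neither was called (adjusted p = 0.177 for IRS1 and 0.669 for IRS2 in limma), although IRS1 was past the threshold without control replicate 1 (adjusted p = 0.0398).

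MET, the receptor of hepatocyte growth factor, was at 3964 and 4434 normalized counts in the controls and at 3755 and 3804 in the knockdown. Both knockdown libraries were below both controls, which lay 1.12 times apart. The log2 fold change was -0.15 (SE 0.069, 95% interval -0.30 to 0.004) and the adjusted p was 0.185 in limma, so MET was not called. Without control replicate 1 its log2 fold change was -0.23 (adjusted p = 0.0506 in limma), and without control replicate 2 it was -0.069 (adjusted p = 0.650). MST1R, the other receptor of the MET family, was set beside it after its values were seen. It was at 837 and 785 in the controls and at 968 and 1017 in the knockdown and was not called (adjusted p = 0.0563 in limma). MST1R was called without control replicate 1 (adjusted p = 0.0491 in limma).

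The 2 Eph receptors moved in opposite directions. EPHA2 binds ephrin-A ligands on neighbouring cells and is abundant in many carcinomas. It was at 3337 and 3266 normalized counts in the controls and at 2324 and 2516 in the knockdown. All knockdown values were below all control values, and the log2 fold change was -0.45 (SE 0.068, 95% interval -0.60 to -0.30, adjusted p = 0.0028 in limma). When 1 library was left out, the log2 fold change lay between -0.51 and -0.39.

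EPHB4, a receptor of ephrin-B2 known for its part in vessel formation, was at 2699 and 2583 in the controls and at 3203 and 3231 in the knockdown. Both knockdown libraries were above both controls, and the log2 fold change was 0.28 (SE 0.064, 95% interval 0.14 to 0.43, adjusted p = 0.017 in limma). The call was lost without siHNF4A replicate 1 (adjusted p = 0.0797 in limma), without siHNF4A replicate 2 (adjusted p = 0.0942) and without the filter on low values (adjusted p = 0.0683). EPHB4 overlaps SLC12A9 in RefSeq, and reads of the overlap cannot be assigned if the counting ignored strand. SLC12A9 was at 1427 and 1388 in the controls and at 1477 and 1448 in the knockdown and was not called (adjusted p = 0.677 in limma). EPHA2 overlaps EPHA2-AS1 in the same annotation.

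Of the 14 Eph symbols 8 were tested, and 4 rose, 1 fell and 3 were not called, where 6.02% of all genes were called as higher and 8.11% as lower. EPHB2 and EPHB3, which position cells along the intestinal crypt, rose, EPHB2 from 2732 and 2919 normalized counts to 4436 and 4207. EPHB2 had a log2 fold change of 0.61 (SE 0.066, adjusted p = 5.31e-04 in limma), and 0.565 to 0.661 when 1 library was left out. EPHB3 was at 31.2 and 51.8 in the controls and at 126 and 95.1 in the knockdown (log2 fold change 1.42, adjusted p = 0.0115 in limma). EPHA1 rose from 1075 and 908 to 1250.0 and 1268 (adjusted p = 0.0389 in limma). The call of EPHB3 was lost without siHNF4A replicate 1 (adjusted p = 0.0948 in limma). The call of EPHA1 was lost without control replicate 2, siHNF4A replicate 1 or siHNF4A replicate 2 (adjusted p of up to 0.177 in limma). EPHA2 was the one Eph receptor among those tested that fell. EPHB1 was at 300.2 and 299 in the controls and at 406 and 360.3 in the knockdown, without overlap, and was not called (adjusted p = 0.0922 in limma). EPHA10 and EPHB6 were not called, and their libraries overlapped.

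Within a library, the ratio of 2 receptors of one family is free of that library's scaling. The 4 pairs below were put together after their values were seen, each with a receptor that fell as the denominator, and they are described without a test. Of the 4 numerators only EPHB4 was called. Divided by its control mean, the ratio of IGF1R to INSR was 0.791 and 1.26 for the controls, against 1.96 and 2.70 for the knockdown. For FGFR3 to FGFR4 it was 1.07 and 0.932, against 2.03 and 1.94. The ratio of EPHB4 to EPHA2 was 1.01 and 0.989, against 1.72 and 1.61. For EGFR to ERBB3 the values were 1.04 and 0.960, against 1.57 and 1.52. In all 4 pairs both knockdown libraries were above both controls, and the IGF1R to INSR ratio spread most between replicates. A direction is fixed here by the choice of pairs.

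**Figure D3:**
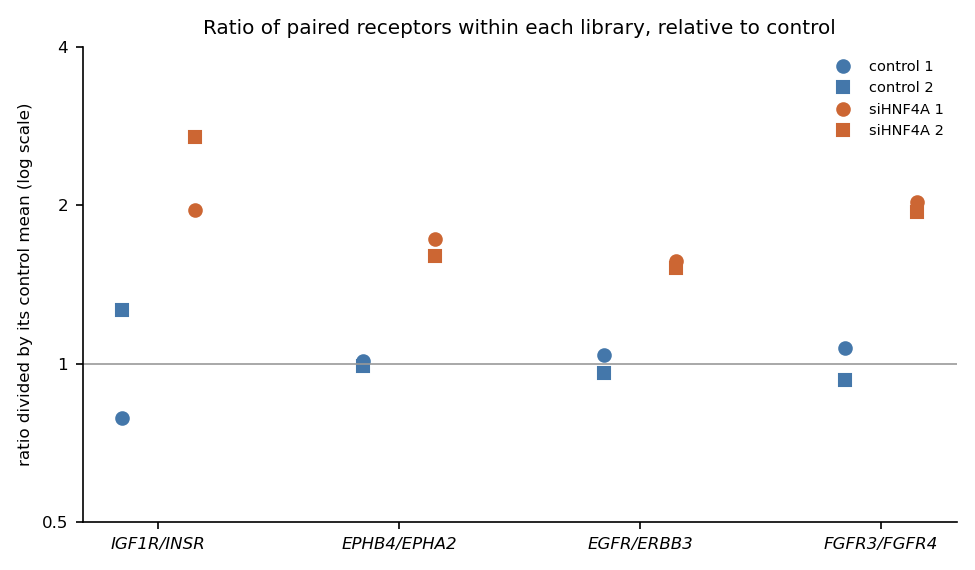
Ratio of the normalized counts of 2 receptors in each library, divided by the geometric mean of the ratio in the 2 controls (y axis, log scale). The control points lie around 1 and the siHNF4A points between 1.52 and 2.70.

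The ligands of these receptors were examined as a list of 41 symbols. Of these 32 had values, 20 passed the filter, and 2 rose, 2 fell and 16 were not called. Their median log2 fold change was 0.043 and 20.0% of those tested were called, against 14.1% of all genes. AREG, the gene of the EGFR ligand amphiregulin, fell from 776 and 798 normalized counts to 415 and 468. Its log2 fold change was -0.84 (SE 0.10, adjusted p = 0.0011 in limma), and -0.92 to -0.75 when 1 library was left out. The other EGFR ligands were not called: TGFA was at 389 and 312 in the controls and at 364 and 456 in the knockdown, BTC at 231 and 159 and at 199 and 189, and HBEGF at 37.3 and 48.2 and at 31.9 and 52.9. EREG did not exceed 25.05 and EGF did not exceed 26.9. Libraries overlapped for each of these genes. Of the neuregulins that bind ERBB3 and ERBB4, NRG2 had a mean under 10. NRG4, which binds ERBB4, was at 65.6 and 51.5 in the controls and at 62.5 and 142 in the knockdown and was not called (adjusted p = 0.229 in limma). Its log2 fold change of 0.69 rested on siHNF4A 2: it was 1.28 without siHNF4A replicate 1 (adjusted p = 0.0334 in limma) and 0.10 without siHNF4A replicate 2 (adjusted p = 0.904).

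Of the ephrin-B genes, which encode membrane-bound ligands of EphB receptors, EFNB2 rose and EFNB1 fell. EFNB2, the gene of the EPHB4 ligand, rose from 672 and 714 normalized counts to 843 and 924 (log2 fold change 0.35, adjusted p = 0.0375 in limma). EFNB1 fell from 1073 and 1154 to 944 and 828 (log2 fold change -0.33, adjusted p = 0.0459 in limma). Each was called in 1 of the 4 fits that left out a library: EFNB2 without control replicate 2 and EFNB1 without control replicate 1. The largest adjusted p without another library was 0.212 for EFNB2 and 0.253 for EFNB1, both without siHNF4A replicate 2. EFNB1 was also not called after median-of-ratios, upper-quartile or quantile rescaling, with an adjusted p of 0.0523 to 0.0767 in limma. The ephrin-A genes EFNA1 to EFNA5, which encode ligands of EPHA2, were not called, with log2 fold changes from -0.083 for EFNA2 to 0.55 for EFNA3. The value of EFNA3 was 0.013 without control replicate 1, 1.09 without control replicate 2, 0.24 without siHNF4A replicate 1 and 0.86 without siHNF4A replicate 2.

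Of the fibroblast growth factors, FGF20 rose from 23.3 and 23.7 to 55.0 and 54.8 normalized counts, a log2 fold change of 1.19 (SE 0.29, adjusted p = 0.025 in limma). The replicates of FGF20 lay close together in both groups. Its call was lost without siHNF4A replicate 1 or siHNF4A replicate 2 (adjusted p = 0.133 and 0.135 in limma). FGF19, the ligand of FGFR4 named above, was at 115 and 118 in the controls and at 102 and 106 in the knockdown and was not called (adjusted p = 0.618 in limma). FGF23, the phosphate-regulating hormone of bone, was at 7699 and 4467 in the controls and at 4154 and 4665 in the knockdown. Control 1 stood apart from the other libraries, and the gene was not called (adjusted p = 0.183 in limma). Without control replicate 2 its log2 fold change was -0.81, and without control replicate 1 it was -0.021, so its size rested on which control was kept. FGF9 was at 25.5 and 10.0 in the controls and at 10.2 and 5.15 in the knockdown and was not called. IGF1 and IGF2, the ligands of IGF1R, did not exceed 23.0 and 43.1 normalized counts and were not called. The 12 ligand genes under the filter did not exceed 14.0 normalized counts, and the other 9 ligand symbols, HGF among them, were not analysed here.

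**Figure D4:**
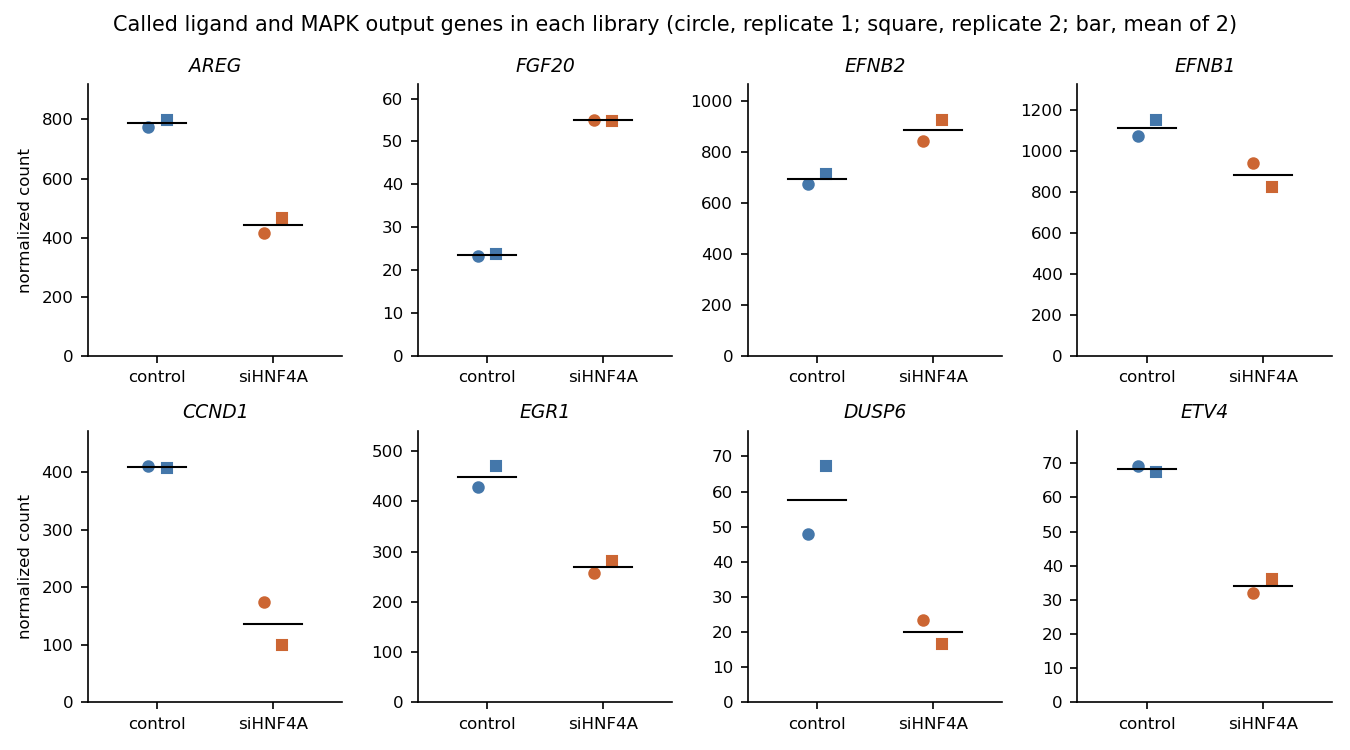
Normalized count (y axis, from 0) in each control and siHNF4A library of the 4 called ligand genes (upper row) and the 4 called MAPK output genes (lower row), with a bar at the mean of 2. AREG, EFNB1 and all 4 output genes are lower in both siHNF4A libraries than in both controls, and FGF20 and EFNB2 are higher.

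Of the 49 other receptor tyrosine kinases 23 were tested, 4 rose, 1 fell and 18 were not called, with a median log2 fold change of 0.069. The share called was 21.7%, against 14.1% of all genes. Beside EPHB2, EPHB3 and EPHA1, NTRK2, a neurotrophin receptor, rose from 87.7 and 50.2 normalized counts to 122 and 141 (adjusted p = 0.0407 in limma). AATK fell from 796 and 817 to 596 and 530.5 (log2 fold change -0.52, adjusted p = 0.0085 in limma). NTRK2 was not called without control replicate 2, siHNF4A replicate 1 or siHNF4A replicate 2 (adjusted p of up to 0.191 in limma), nor after quantile normalization (adjusted p = 0.0568). AATK was not called without siHNF4A replicate 2 (adjusted p = 0.0627 in limma). DDR1, a collagen receptor, and PTK7, which has an inactive kinase, had high means and log2 fold changes of 0.093 each, with adjusted p of 0.268 and 0.358 in limma. After quantile normalization DDR1 was called, with a log2 fold change of 0.17 (adjusted p = 0.0416 in limma), and that of PTK7 was 0.15. On the values as deposited, the log2 fold change of PTK7 was 0.025 without siHNF4A replicate 1 and 0.16 without siHNF4A replicate 2.

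Adaptors and the cascades below the receptors gave 38 tested genes of 39 symbols, of which 3 rose, 2 fell and 33 were not called. The share called was 13.2%, against 14.1% of all genes, and the median log2 fold change was -0.011. STAT3 rose from 4750 and 5041 normalized counts to 6198 and 6150 (log2 fold change 0.34, adjusted p = 0.0054 in limma). AKT1, the kinase below PI3K, rose from 3610 and 3760 to 4889 and 4512 (0.35, adjusted p = 0.0071). PTPN11, the phosphatase SHP2 that many of these receptors recruit, rose from 6616 and 6441 to 7735 and 8268 (0.29, adjusted p = 0.0092). CRKL, an adaptor, fell from 2251 and 2399 to 1602 and 1546 (log2 fold change -0.56, adjusted p = 0.0013 in limma). PIK3CB, a catalytic subunit of PI3K, fell from 2228 and 2428 to 1855 and 1933 (log2 fold change -0.30, adjusted p = 0.026 in limma). When 1 library was left out, the log2 fold change of STAT3 lay between 0.29 and 0.38 and that of CRKL between -0.61 and -0.52. AKT1 was not called without siHNF4A replicate 1 (adjusted p = 0.0656 in limma), nor PTPN11 without siHNF4A replicate 2 (adjusted p = 0.0924), nor PIK3CB without control replicate 2, siHNF4A replicate 1 or siHNF4A replicate 2 (adjusted p of up to 0.136).

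Inhibitors, co-receptors and proteases that act on these receptors gave 37 tested genes of 44 symbols, of which 3 rose, 3 fell and 31 were not called. The share called was 16.2%, against 14.1% of all genes, and the median log2 fold change was -0.10. PTPRJ, a phosphatase that acts on several receptor tyrosine kinases, rose from 710 and 732 normalized counts to 1261 and 1207 (log2 fold change 0.77, adjusted p = 5.75e-04 in limma). CBLB, a ubiquitin ligase that marks activated receptors for removal, rose from 385 and 402 to 629 and 702 (0.75, adjusted p = 0.0021). IGF2R, which clears IGF2 and carries enzymes to lysosomes, rose from 9083 and 9285 to 12626 and 12290 (0.44, adjusted p = 7.19e-04). When 1 library was left out, the log2 fold change lay between 0.74 and 0.81 for PTPRJ and between 0.67 and 0.83 for CBLB. For IGF2R it lay between 0.42 and 0.46. IGFBP2, an IGF-binding protein, fell from 442 and 532 to 320 and 286 (log2 fold change -0.68, adjusted p = 0.0090 in limma). ADAM17, the protease that sheds amphiregulin and TGF-alpha, fell from 1956 and 2057 to 1633 and 1706 (log2 fold change -0.26, adjusted p = 0.0383 in limma). IGFBP2 was not called without siHNF4A replicate 2 (adjusted p = 0.0578 in limma). ADAM17 was not called without control replicate 2, siHNF4A replicate 1 or siHNF4A replicate 2 (adjusted p of up to 0.186 in limma), nor after upper-quartile or quantile rescaling (adjusted p = 0.0572 and 0.0673). DUSP6, the third gene that fell, is described with the MAPK output. LRIG1, which lowers ERBB receptors, and ADAM10, which sheds EGF and betacellulin, were chosen after their values were seen. LRIG1 was at 2520.2 and 2427 in the controls and at 2948 and 2679 in the knockdown, and ADAM10 was at 3591 and 3716 and at 4091 and 4224. Neither was called (adjusted p = 0.124 and 0.0704 in limma).

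Genes commonly read as the output of the MAPK route gave 13 tested genes of 14 symbols, of which 0 rose, 4 fell and 9 were not called. The share called was 30.8%, against 14.1% of all genes (8.11% as lower), and the median log2 fold change was -0.27. This list, like the others, was chosen with earlier results of these data known, so the share is described and not tested. Of this list 5 genes are also in the list of inhibitors, DUSP6 among them. CCND1, the gene of cyclin D1, fell from 410.4 and 408 normalized counts to 175 and 99.1, a log2 fold change of -1.63 (SE 0.23, adjusted p = 0.0019 in limma). EGR1, an immediate early transcription factor, fell from 429 and 469 to 258 and 281 (log2 fold change -0.73, adjusted p = 0.0047 in limma). DUSP6, the phosphatase that switches off ERK, fell from 47.9 and 67.2 to 23.5 and 16.5 (-1.48, adjusted p = 0.0183). ETV4, an ETS factor, fell from 69.1 and 67.5 to 32.1 and 36.1 (-0.98, adjusted p = 0.0348). When 1 library was left out, the log2 fold change of CCND1 lay between -2.03 and -1.22 and that of EGR1 between -0.80 and -0.67. DUSP6 was not called without control replicate 2 or siHNF4A replicate 2 (adjusted p of up to 0.0994 in limma), and ETV4 was not called without any 1 of the 4 libraries (adjusted p from 0.0718 to 0.146). SPRY2, a feedback inhibitor, was at 379 and 362 in the controls and at 264 and 311 in the knockdown and was not called (adjusted p = 0.0939 in limma). SPRY4 and SPRED1, chosen after their values were seen, were also lower in both knockdown libraries and not called (adjusted p = 0.0909 and 0.248 in limma). FOS, another immediate early gene chosen in the same way, was at 51.6 and 38.8 in the controls and at 71.8 and 68.1 in the knockdown and was not called (adjusted p = 0.143 in limma). PHLDA1 was at 284 and 280.0 and at 335 and 359, higher in both knockdown libraries, and was not called (adjusted p = 0.148 in limma). Phosphorylation and protein were not measured, so these values are of mRNA alone.

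**Figure D5:**
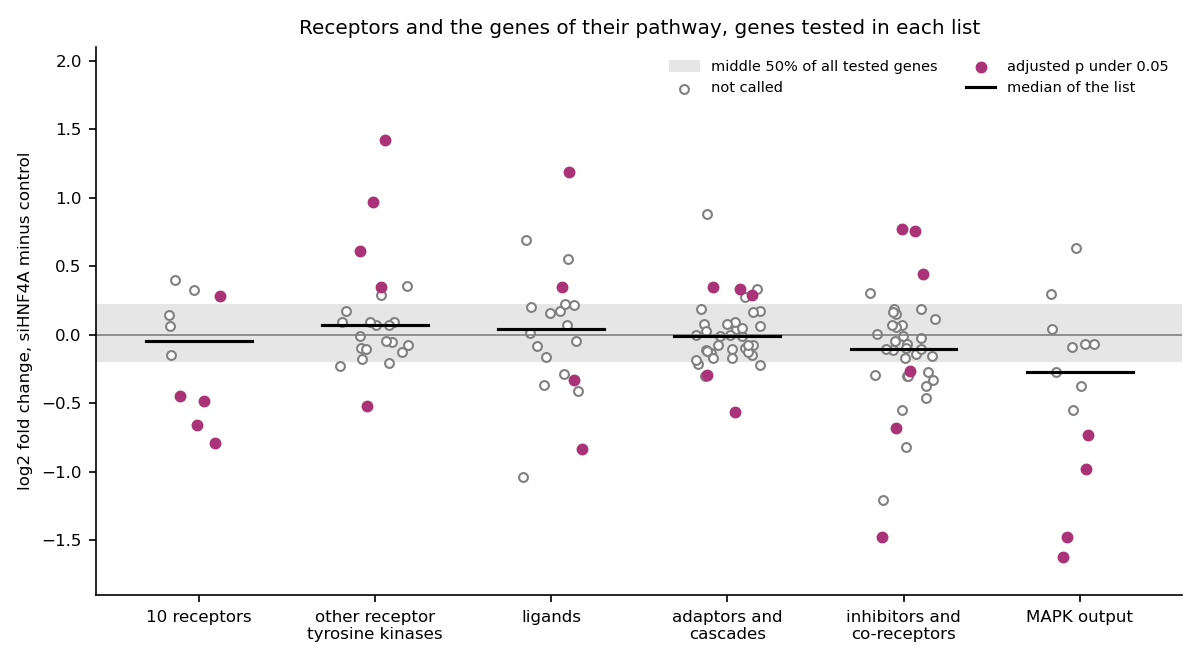
Log2 fold change (y axis, siHNF4A minus control) of each tested gene in the 10 receptors and the 5 lists of their pathway. Filled points are called, open points are not, lines are list medians and the grey band holds the middle 50% of all tested genes. The median lies at -0.043 for the receptors and at -0.27 for MAPK output.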

How the data were processed

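RNA-seq of ESO26 cells was analysed, with 2 siHNF4A and 2 control libraries assigned to groups by their titles. The deposited table gives 1 signal value per gene symbol and library, a normalized count whose normalization method, aligner, counter and annotation are not given in the sources used here. Per the submitters' processing notes, hg19, Bowtie, Bowtie2, Trim Galore, Picard and MACS2 were used in the series, with no role stated. The absolute depth is unknown, so no counting intervals are given, and values are fractional, so no count model was fitted.

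Differences were fitted with limma 3.58.1 (R 4.3.3) on log2(normalized count + 1), a scale that understates changes of low genes. The fit had an intensity trend and no block, over genes with a mean of at least 10, with Benjamini-Hochberg adjustment over all 15577. With 2 libraries per group each p rests on variances shared across genes. The fit was run on simulated data drawn from the kind of model it assumes, with changes larger than those of the called receptors. That run checked the code and not the calls. The members and lists were chosen with earlier results of these data known. Named genes are HNF4A, the receptors, the tested ligands and, in each list, up to 5 called genes per direction and the 3 with the highest mean. Some of the latter are left unnamed. Genes named outside this rule, some after their values were seen, are the markers, MST1R, ERBB4, FGFR1, FGFRL1, KLB, EPHB1, EPHA10, EPHB6, SLC12A9, IRS1, IRS2, LRIG1, ADAM10, SPRY4, SPRED1 and FOS. Overlaps come from RefSeq on GRCh38.p14 and are used for names only. The peak lists and 4C libraries were not used. Alternatives were other pseudocounts (0.5 and 5), filters, rescalings, variance models, a replicate block and leaving out each library.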

Additional observations from a re-analysis of the deposited data

How the results depend on the processing

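The 5 called receptors were called under each alternative with all 4 libraries except 2. Without the variance trend, 0 receptors were called in limma (5 had an unadjusted p under 0.05), as were 0 of 15577 genes (3524 unadjusted). That fit also called 0 ligands, 0 other receptor tyrosine kinases, 0 adaptor and cascade genes, 0 inhibitors and co-receptors and 0 MAPK output genes (4, 7, 6, 12 and 8 unadjusted), and HNF4A, at -1.97, was not called (adjusted p = 0.0919). Without the filter on low values, which tested 30247 genes, 726 were called, with 3 receptors (ERBB3, FGFR4 and EPHA2), 1 ligand, 1 other receptor tyrosine kinase, 2 adaptor and cascade genes, 3 inhibitors and co-receptors and 2 MAPK output genes. The cause was not tested, and more genes entered the fit. Of the named pathway genes, FGF20, EFNB2, EFNB1, EPHB3, EPHA1, NTRK2, AATK, AKT1, PTPN11, PIK3CB, IGFBP2, DUSP6, ADAM17 and ETV4 also lost their call there (adjusted p from 0.0535 to 0.172 in limma).

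When any 1 library was left out, 1013 to 2449 genes were called, with 4 to 6 receptors, 1 to 4 ligands, 2 to 6 other receptor tyrosine kinases, 3 to 7 adaptor and cascade genes, 3 to 7 inhibitors and co-receptors and 2 to 3 MAPK output genes. The log2 fold change of HNF4A lay between -2.11 and -1.82. With the replicate block 2428 genes and 7 receptors were called. IGF1R (adjusted p = 0.0143 in limma) and FGFR3 (adjusted p = 0.0126) were called there and not without the block. Deviations of same-numbered libraries from their group means had a Pearson correlation of -0.019 across genes, and the labels name no shared batch. The replicate numbers were therefore treated as names and not as a pairing.

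The alternatives were run for HNF4A, the receptors, the tested ligands and the pathway genes chosen by the naming rule, except that the filter at a mean of 50 removed the low genes. Of these the sign changed for 10 genes, none of them called. The markers were refitted only with 1 library left out, where VIL1 ranged from -0.003 to 0.18 and CDH5 from -0.25 to 0.59. After quantile normalization it was -0.016 for FGFR2 and -0.022 for BTC. ERBB2 was at 0.006 after median-of-ratios and 0.029 after upper-quartile rescaling. When 1 library was left out, the log2 fold change ranged from -0.28 (without siHNF4A replicate 2) to 0.41 for FGFR2 and from -0.060 to 0.041 for ERBB2, which was 0.009 without control replicate 1. It ranged from -0.70 to 0.13 for EGF, -1.40 to 0.67 for IGF1, -0.26 to 0.58 for IGF2, -0.40 to 0.83 for EREG, -0.057 to 0.20 for EFNA4, -0.23 to 0.059 for EFNA2, -0.40 to 0.31 for HBEGF and -0.25 to 0.28 for BTC. The planned order of the receptors by level was not run, since no transcript or coding lengths were used. With 2 libraries per group an exact permutation test of 1 gene cannot give a p below 0.333.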
